A study of Mus musculus with 32 samples.

Results

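Inflammasome and pyroptosis genes were followed across cultured mouse lung endothelial cells with and without Dnmt1 silencing. The 10 genes were Casp1, Casp4, Casp12, Gsdmd, P2rx7, Pycard, Aim2, Nlrp3, Il18 and Il1b, out of 54429 gene symbols in the count table. They were chosen by name as one pathway, and Casp1 and P2rx7 were selected on their measured levels, as the strongest lasting rises after Dnmt1 silencing. Differences between the siRNAs are therefore a description for these genes, and calls on that contrast are counted only beside the share over all genes, with nothing read from them. Responses to the cytokines were tested. The genes were, however, chosen with earlier results of these data known, so the list is not independent of them. The measurement was bulk RNA-seq of Veravec cells, a mouse lung endothelial cell line, so every group is a culture of 1 line in which siRNA lowers, and does not remove, Dnmt1. The 32 libraries fall into 8 groups of 4 biological replicates. Cells received control siRNA, here si-control, or siRNA that targets Dnmt1, here si-dnmt. The study's methods list 2 Dnmt1 siRNA sequences and do not state which libraries received which. Dnmt1 is the enzyme that copies DNA methylation onto newly made strands, and transfection was done in 2 rounds. Each siRNA was combined with no cytokine, with TNF (TNFα, 10 ng/mL), with IFN (IFNγ, 1000 U/mL) or with TNF + IFN. Cytokine exposure lasted 16 h, and doses in the combined groups are not stated separately in the labels.

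Inflammasomes are cytosolic assemblies in which a sensor such as NLRP3 or AIM2 recruits the adaptor ASC, the product of Pycard, and through it pro-caspase-1. Active caspase-1 matures IL-1β and IL-18 and cleaves gasdermin D, whose fragments form membrane pores and cause the lytic death called pyroptosis, and caspase-11 (Casp4 in the mouse) cleaves gasdermin D in response to cytosolic lipopolysaccharide. Extracellular ATP acting on the channel P2X7 lowers cellular potassium and so triggers NLRP3. Endothelial cells carry the caspase-11 and gasdermin D arm, which is known for its part in lung vascular injury in endotoxaemia, whereas IL-1β is mainly a product of myeloid cells.

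Casp1, Casp4 and Casp12 are direct neighbours in this order on mouse chromosome 9 in RefSeq GRCm38.p6, with no other listed gene between them. Between the siRNAs, Casp1 was higher in si-dnmt in every cytokine state and Casp12 lower with each cytokine. Casp4 was higher in every si-dnmt library without cytokine. Promoter windows (bases before and just after a start site, 300 in all) were listed for 9 of the 10 genes, Gsdmd having no entry. The stretch before the start site is shown for the caspase neighbours and for P2rx7. It is not shown for Aim2 and Nlrp3, which also differed between the siRNAs. All 4 lie on the plus strand. CG dinucleotides, the sites of DNA methylation, are in capitals for Casp1 (chr9:5298267-5298516) and for P2rx7 (chr5:122643677-122643926, the first of 2 listed start sites).
Casp1: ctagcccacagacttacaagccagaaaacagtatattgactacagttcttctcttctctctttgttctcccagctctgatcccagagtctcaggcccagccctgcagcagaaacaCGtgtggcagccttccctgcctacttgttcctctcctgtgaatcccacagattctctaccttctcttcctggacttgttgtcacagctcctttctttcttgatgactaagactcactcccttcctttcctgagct
P2rx7: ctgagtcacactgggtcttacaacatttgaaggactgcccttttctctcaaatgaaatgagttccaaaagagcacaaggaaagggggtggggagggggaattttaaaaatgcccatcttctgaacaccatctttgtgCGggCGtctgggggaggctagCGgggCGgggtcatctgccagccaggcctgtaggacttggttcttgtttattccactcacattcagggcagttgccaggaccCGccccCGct
The whole Casp1 window held 3 CG dinucleotides. The whole P2rx7 window held 8 at the first start site and 4 at the second. The median was 7 and the quartiles 3 and 20 over all 32851 windows. No methylation was measured here. For Casp4 (chr9:5308599-5308848, the first of 2 start sites) and Casp12 (chr9:5345226-5345475), capitals mark matches to motifs searched on both strands.
Casp4: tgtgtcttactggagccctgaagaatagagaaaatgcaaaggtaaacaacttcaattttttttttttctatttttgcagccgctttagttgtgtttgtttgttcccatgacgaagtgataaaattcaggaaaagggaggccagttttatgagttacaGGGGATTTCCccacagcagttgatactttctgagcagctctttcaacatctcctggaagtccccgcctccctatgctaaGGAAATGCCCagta
Casp12: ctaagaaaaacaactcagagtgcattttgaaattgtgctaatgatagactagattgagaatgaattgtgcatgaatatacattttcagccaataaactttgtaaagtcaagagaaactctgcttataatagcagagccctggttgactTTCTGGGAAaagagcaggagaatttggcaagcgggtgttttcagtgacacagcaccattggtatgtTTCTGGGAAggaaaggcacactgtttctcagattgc
The Casp4 window held 2 matches to GGG and TTTCC parted by any 2 bases, an NF-κB type sequence. At least 1 match was held by 1.63% of all windows. The Casp12 window held 2 matches to TTCNNNGAA, the GAS sequence of STAT factors, with at least 1 match in 8.3% of windows. Windows of the other listed genes, Casp1, Nlrp3 and Il18 included, matched neither sequence. The interferon-stimulated response element core (TTTC, any 2 bases, TTTC), found in 3.44% of windows, matched in no window of these genes. A match is a description of the letters and no more.

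Libraries held 17362546 to 33500030 counts (median 20859668). Dnmt1 lay at 86.4 to 211 CPM (counts scaled to the library total) in the si-control libraries and at 5.10 to 17.3 CPM in the si-dnmt libraries, with fitted decreases of 13.5- to 16.9-fold in the 4 cytokine states. In the si-dnmt groups Dnmt1 was 10.3 to 17.3 CPM in replicates 1 and 2 and 5.10 to 9.20 CPM in replicates 3 and 4. Within each si-control group it was instead higher in replicates 3 and 4. Over these groups it was 86.4 to 157 CPM in replicates 1 and 2 and 148 to 211 CPM in replicates 3 and 4. All 8 endothelial markers examined had counts in every library, at a summed 2469 to 7784 CPM. Cldn5 was the lowest of them and fell to 2 counts (0.116 CPM) in a library of si-dnmt with TNF + IFN. Of 11 leukocyte and macrophage markers 4 passed the filter on low counts, and the summed level ranged from 104 to 276 CPM in the si-control groups and from 70.0 to 207 CPM in the si-dnmt groups, almost all of it Cd68, Lyz2 and Cd14. The defining leukocyte genes Ptprc, Itgam and Adgre1 never exceeded 3 counts in a library, and Cd3e had none. Other marker levels moved with the cytokines. The endothelial sum was 4963 to 7784 CPM without cytokine and 3078 to 3906 CPM with TNF + IFN in si-control cells, and 4772 to 7063 CPM and 2469 to 3651 CPM in si-dnmt cells. Of 6 fibroblast and pericyte markers 4 passed the filter. Their sum in si-control cells was 1.92 to 4.79 CPM without cytokine, 15.8 to 56.6 CPM with TNF, 2.08 to 4.20 CPM with IFN and 23.7 to 35.8 CPM with TNF + IFN. In si-dnmt cells it was 4.22 to 9.07, 8.68 to 31.5, 3.15 to 6.07 and 10.2 to 25.2 CPM in the same order. Most of the sum after TNF was Dcn, the gene of the matrix proteoglycan decorin, and Lum had no count in 6 of the 8 groups. The part of these markers in the cytokine responses was not tested. In bulk RNA, a change in the share of cells using a gene and a change in RNA per cell cannot be told apart.

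Levels per length spanned several orders of magnitude. Per kb of exon and without cytokine in si-control cells, Gsdmd averaged 38.3 CPM, Casp4 14.7 CPM and Casp12 13.8 CPM. Aim2 averaged 2.57 CPM per kb, and Casp1, P2rx7, Pycard, Il18 and Nlrp3 lay between 0.0117 and 0.120 CPM per kb. With TNF + IFN and si-dnmt, Casp1 reached 8.23 CPM per kb and Il18 6.59 CPM per kb, while Gsdmd stood at 114 CPM per kb and Casp4 at 68.6 CPM per kb. Of the 10 genes, 9 entered the fit over 15254 genes; Il1b did not pass the filter on low counts.

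**Figure D1:**
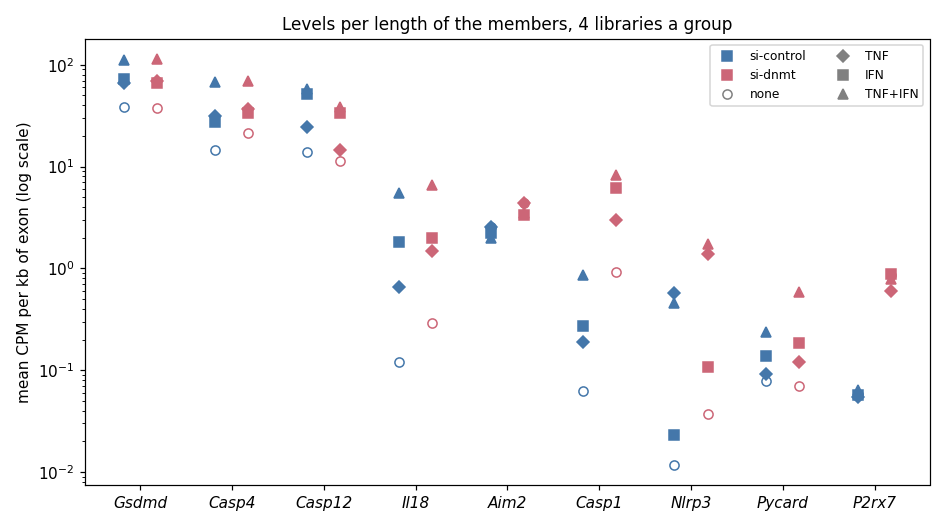
Mean CPM per kb of exon (log axis) of 9 genes in the 8 groups, 4 libraries a group, with colour for siRNA and marker for cytokine. Gsdmd, Casp4 and Casp12 lie above 10 CPM per kb in all groups, and Casp1 lies between 0.0628 and 8.23 CPM per kb.

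The first question was how the cytokines moved this pathway. With TNF + IFN, 7 of the 9 tested genes rose and 1 fell in si-control cells, where 23.5% of all genes were called higher and 21.6% lower, and 7 rose and 1 fell in si-dnmt cells, where 21.3% and 18.8% were. P2rx7 was the exception with both siRNAs. TNF alone raised 6 of 9 in si-control cells (16.1% of all genes higher, 14.6% lower) and 5 of 9 in si-dnmt cells (11.5% and 9.53%). IFN alone raised 5 of 9 in si-control cells (8.52% higher, 5.87% lower), and in si-dnmt cells it raised 5 and lowered 1 (6.67% and 2.32%). A call is an adjusted p under 0.05 in edgeR's quasi-likelihood test with Benjamini-Hochberg adjustment. The median log2 fold change over the 9 genes after TNF + IFN was 2.08 in si-control and 1.78 in si-dnmt cells, against −0.01 and 0.01 over all genes.

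**Figure D2:**
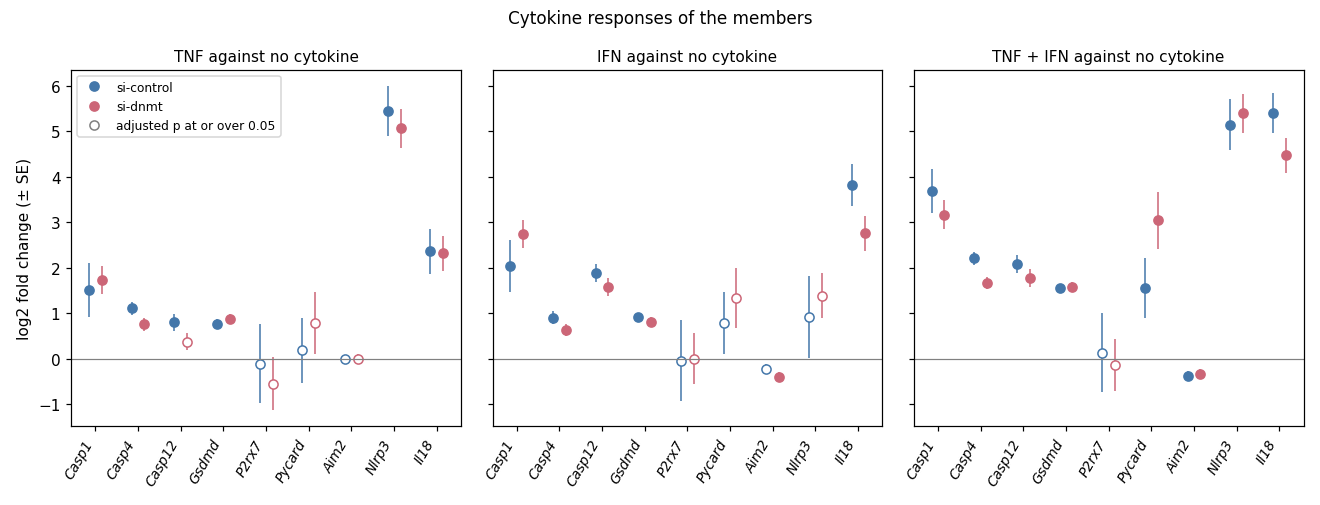
Log2 fold change ± SE against no cytokine for 9 genes after TNF, IFN or TNF + IFN, in si-control and si-dnmt cells (4 libraries a group); filled points have an adjusted p under 0.05. Nlrp3 responds with TNF, Il18 with each cytokine, and P2rx7 stays near 0 with wide errors.

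The second question was whether Dnmt1 silencing altered these responses. Casp1 and P2rx7 are counted among the 9 genes, but they were chosen for siRNA differences that last over the cytokine states. That choice favours a small response difference, so their values here are a description and no test. None of the 9 genes was called for a difference of the TNF response between siRNAs (0.0328% of all genes were called in either direction), of the IFN response (0.0459%) or of the TNF + IFN response (0.511%). At an unadjusted p under 0.05 the numbers were 0, 0 and 1. DESeq2, which like the main fit left the replicate numbers out, called none. The TNF by IFN interaction, which asks whether the combined response departs from the sum of the separate log2 responses, was called for 0 of 9 genes in si-control cells (1.08% of all genes) and 0 of 9 in si-dnmt cells (0.354%), with 1 gene each at an unadjusted p under 0.05 and none by DESeq2. With the replicate block Casp4 was called for the TNF + IFN response difference (−0.54, adjusted p = 0.00125) and Casp1 for the interaction in si-dnmt cells (−1.28, adjusted p = 0.0443).

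Between siRNAs, on the contrast from which the selection was made, 4 of the 9 genes were called higher in si-dnmt and 0 lower without cytokine, where 9.55% of all genes were called higher and 8.82% lower. With TNF 5 were called higher and 1 lower (10.3% and 9.56%), with IFN 4 higher and 1 lower (10.8% and 9.55%), and with TNF + IFN 4 higher and 1 lower (8.91% and 8.65%). These counts follow from the choice of genes and are given only beside the background.

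**Figure D3:**
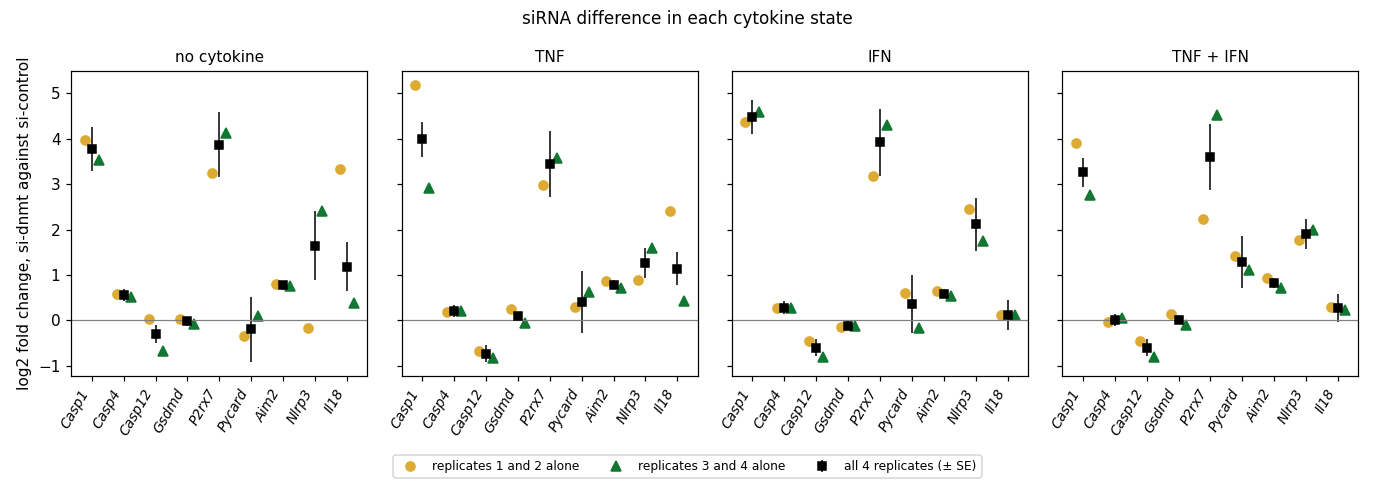
Log2 fold change of si-dnmt against si-control for 9 genes in each cytokine state, from all 4 replicates (squares, ± SE) and from replicates 1 and 2 or 3 and 4 alone. Casp1 and P2rx7 lie above 2 in every state and in each replicate pair, Casp12 lies below 0 with TNF, IFN and TNF + IFN, and Casp4 and Gsdmd lie near 0 with TNF + IFN.

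Among the inflammatory caspases, Casp1 encodes the enzyme of the canonical inflammasome. Without cytokine, si-control libraries held 2, 2, 3 and 1 Casp1 counts, or 0.0448 to 0.132 CPM, and si-dnmt libraries held 35, 41, 33 and 30 counts, or 1.04 to 1.75 CPM. The groups did not overlap, and the ratio of their summed CPM-scaled counts was 14.2 with a 95% counting interval of 7.03 to 33.7. A counting interval covers counting error only and leaves out the spread between replicates. For this contrast it is a description, as Casp1 was chosen from it. With TNF the si-control libraries held 1, 6, 11 and 7 counts and the si-dnmt libraries 109, 148, 79 and 49. With IFN the counts were 7, 10, 7 and 6 against 168, 239, 182 and 306, and with TNF + IFN 17, 17, 38 and 22 against 228, 198, 202 and 237. Every si-dnmt library lay above every si-control library of the same cytokine state, at mean levels of 4.52 against 0.281 CPM with TNF, 9.14 against 0.404 CPM with IFN and 12.3 against 1.30 CPM with TNF + IFN. The fitted fold difference was 15.8, 22.3 and 9.56 in these 3 states. Casp1 without cytokine in si-dnmt cells (1.37 ± 0.341 CPM, SD, n = 4) overlapped its level under TNF + IFN in si-control cells (1.30 ± 0.709 CPM, SD, n = 4).

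Casp1 also responded to the cytokines with either siRNA. In si-control cells it rose by 2.04 ± 0.57 (log2, SE) with IFN (adjusted p = 0.0109) and by 3.69 ± 0.49 with TNF + IFN (adjusted p = 2.9e-07), and the ratios of summed counts were 4.32 (counting interval 1.94 to 10.9) and 13.3 (6.49 to 31.8). The IFN value was 1.92 in replicates 3 and 4 alone and was not called there (adjusted p = 0.0778). The rise with TNF, 1.52 ± 0.59 (adjusted p = 0.0436), rested on 25 against 8 summed counts, a ratio of 2.98 with a counting interval of 1.30 to 7.65. It was not called with the replicate block (1.52, adjusted p = 0.063), in replicates 1 and 2 alone (0.64, adjusted p = 0.605) or without 1 library in 7 of 8 cases, the exception being si-control + TNF replicate 1. In si-dnmt cells, where the counts were higher, Casp1 rose by 1.73 ± 0.31 with TNF (adjusted p = 0.00015), by 2.74 ± 0.31 with IFN (adjusted p = 1.46e-07) and by 3.17 ± 0.32 with TNF + IFN (adjusted p = 2.87e-09). The 2 separate responses in si-dnmt cells summed to more than the combined one, an interaction of −1.30 ± 0.42 that was not called (adjusted p = 0.321) but was with the replicate block (−1.28, adjusted p = 0.0443) and in replicates 1 and 2 alone (−1.43, adjusted p = 0.00778). Response differences between siRNAs for Casp1 were 0.21 ± 0.70 for TNF, 0.70 ± 0.70 for IFN and −0.52 ± 0.64 for TNF + IFN, each no larger than about its SE. They are a description, because Casp1 was chosen for a lasting siRNA difference.

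Casp4, which encodes the non-canonical lipopolysaccharide-responsive caspase, was abundant in every group. Without cytokine its level was 58.4, 60.3, 45.9 and 52.8 CPM with si-control and 89.5, 88.1, 72.3 and 69.8 CPM in si-dnmt replicates 1 to 4. With TNF + IFN it was 304, 287, 202 and 218 CPM against 306, 276, 221 and 216 CPM. The siRNA groups did not overlap without cytokine, where the fitted difference was 1.47-fold, and overlapped almost fully with TNF + IFN, where it was 1.01-fold. In si-control cells Casp4 rose by 1.11 ± 0.14 with TNF (adjusted p = 4.49e-07), by 0.91 ± 0.14 with IFN (adjusted p = 1.26e-05) and by 2.22 ± 0.14 with TNF + IFN (adjusted p = 2.67e-13). In si-dnmt cells the rises were 0.76 ± 0.14 (adjusted p = 0.000158), by 0.64 ± 0.14 (adjusted p = 0.00164) and 1.67 ± 0.14 (adjusted p = 8.13e-11). The TNF + IFN response was smaller in si-dnmt cells by 0.54 ± 0.19 (interval −0.92 to −0.17), which was not called (adjusted p = 0.267). With the replicate block the same difference, −0.54, was called (adjusted p = 0.00125), as it was within replicates 1 and 2 (−0.61, adjusted p = 0.00267) and within replicates 3 and 4 (−0.47, adjusted p = 0.00978). It shares its untreated libraries with the siRNA difference above and is not separate from it.

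Casp12, a caspase of the same cluster that is associated with the endoplasmic reticulum, was lower in si-dnmt cells with each cytokine. With TNF it was at 109, 107, 81.0 and 74.3 CPM with si-control and at 67.0, 70.2, 43.6 and 43.8 CPM in si-dnmt cells. With IFN it was at 224, 192, 198 and 174 CPM against 141, 163, 108 and 106 CPM, and with TNF + IFN at 256, 238, 203 and 202 CPM against 197, 163, 126 and 107 CPM. Every si-dnmt library lay below every si-control library in these 3 states, the fitted levels being 0.603, 0.659 and 0.660 of the si-control level. Without cytokine the fitted ratio was 0.812, with a log2 difference of 0.04 in replicates 1 and 2 and −0.67 in replicates 3 and 4. IFN raised Casp12 by 1.89 ± 0.19 in si-control (adjusted p = 1.71e-08) and 1.59 ± 0.19 in si-dnmt cells (adjusted p = 4.91e-07). TNF raised it in si-control cells (0.81 ± 0.19, adjusted p = 0.00177). In si-dnmt cells the TNF value was 0.38 ± 0.19 (adjusted p = 0.168), which was called with the replicate block (0.37, adjusted p = 0.0273) and in replicates 1 and 2 alone (0.46, adjusted p = 0.00136). With TNF + IFN it rose by 2.08 ± 0.20 (adjusted p = 8.37e-10) and 1.78 ± 0.19 (adjusted p = 1.8e-08). In replicates 1 and 2 alone the TNF response was smaller in si-dnmt cells by 0.70 (adjusted p = 0.00789), and the TNF + IFN response by 0.50 (adjusted p = 0.0452). The neighbouring genes thus differed in 3 ways between siRNAs, Casp1 being higher in every cytokine state, Casp4 higher in every library without cytokine and Casp12 lower with every cytokine.

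**Figure D4:**
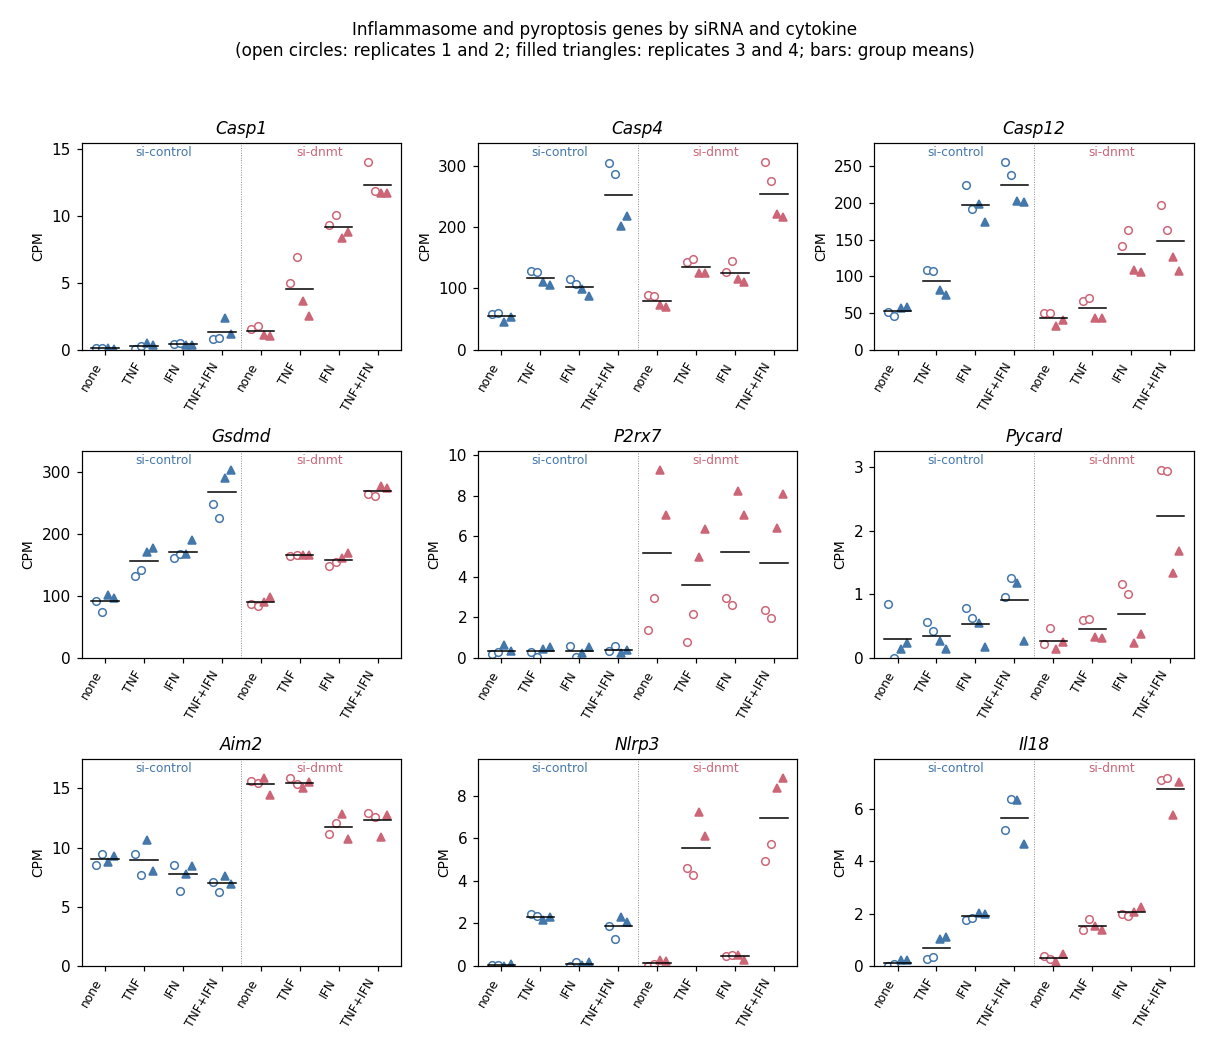
CPM of 9 genes in every library, by cytokine and siRNA (linear axes from 0; open circles are replicates 1 and 2, triangles replicates 3 and 4, bars the means of 4 libraries). Casp1 and P2rx7 are near 0 in si-control cells, P2rx7 separates by replicate pair in si-dnmt cells, and Gsdmd rises with each cytokine under both siRNAs.

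Gsdmd, the pore former, was the most abundant of the genes per length without cytokine, and its levels overlapped between siRNAs. Without cytokine it was at 91.9, 74.0, 102 and 96.8 CPM with si-control and at 86.8, 83.5, 89.8 and 98.8 CPM in si-dnmt cells. With TNF + IFN it was at 248, 227, 291 and 304 CPM against 266, 262, 278 and 274 CPM. The siRNA groups overlapped in all 4 states, and the siRNA difference fitted over all 4 replicates ran from −0.12 to 0.09 on the log2 scale. With TNF, replicates 1 and 2 alone differed by 0.26, from 133 and 143 CPM against 164 and 167 CPM, and replicates 3 and 4 alone by −0.06. TNF raised Gsdmd by 0.77 ± 0.10 in si-control (adjusted p = 8.13e-07) and 0.89 ± 0.10 in si-dnmt cells (adjusted p = 1.67e-07). IFN raised it by 0.91 ± 0.10 (adjusted p = 4.5e-08) and 0.82 ± 0.10 (adjusted p = 4.4e-07), and TNF + IFN by 1.55 ± 0.10 (adjusted p = 4.03e-13) and 1.59 ± 0.10 (adjusted p = 3.31e-13). The difference of the TNF + IFN response between siRNAs was 0.04 with an interval of −0.24 to 0.31.

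P2rx7, the ATP-gated channel upstream of NLRP3, showed a siRNA difference and no called cytokine response. Across the 16 si-control libraries it had 1 to 14 counts. In si-dnmt replicates 1 to 4 it had 31, 69, 272 and 203 counts without cytokine, 17, 46, 108 and 124 with TNF, 53, 62, 179 and 244 with IFN and 38, 33, 111 and 164 with TNF + IFN. All si-dnmt libraries lay above all si-control libraries, at 0.777 to 9.28 CPM against 0.0469 to 0.615 CPM. Within the si-dnmt groups, replicates 1 and 2 (0.777 to 2.95 CPM) and replicates 3 and 4 (4.98 to 9.28 CPM) did not overlap. Dnmt1 itself was lower in replicates 3 and 4 of the si-dnmt groups and higher in those of the si-control groups, as given above. Whether these are linked was not tested. The fitted siRNA difference was 14.6-fold without cytokine, 10.8-fold with TNF, 15.1-fold with IFN and 12.1-fold with TNF + IFN. On the log2 scale it ran from 2.24 to 3.25 in replicates 1 and 2 alone and from 3.57 to 4.52 in replicates 3 and 4 alone. Cytokine responses were −0.11 ± 0.86, −0.04 ± 0.89 and 0.14 ± 0.87 in si-control and −0.54 ± 0.58, 0.01 ± 0.57 and −0.13 ± 0.57 in si-dnmt cells for TNF, IFN and TNF + IFN. The adjusted p-values were 0.573 to 0.997, and the intervals of these responses reached from −1.80 to 1.83 with si-control and from −1.67 to 1.12 with si-dnmt. P2rx7 shares exon bases with a listed microRNA gene on the same strand, Mir8115.

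Pycard, the gene of the adaptor ASC, had low counts in every group and its highest mean level under TNF + IFN with si-dnmt. Without cytokine it had 18, 0, 3 and 5 counts in si-control and 5, 11, 4 and 7 in si-dnmt cells. With TNF + IFN it had 20, 24, 19 and 5 counts in si-control and 48, 49, 23 and 34 in si-dnmt cells, or 0.264 to 1.25 CPM against 1.33 to 2.95 CPM. The groups under TNF + IFN did not overlap, and in the si-control group without cytokine a library with no count stood beside one with 18. TNF + IFN raised Pycard by 3.04 ± 0.64 in si-dnmt cells (adjusted p = 0.000269). In si-control cells the rise was 1.57 ± 0.66 (adjusted p = 0.0499). That call was lost without any of si-control replicates 2, 3 and 4 or si-control + TNF + IFN replicates 1, 2 and 3, and the value was 2.82 without si-control replicate 1. The difference between the responses, 1.48 ± 0.92, was not called (adjusted p = 0.703). Pycard overlaps the antisense gene Gm45205, and since no strand setting is given its reads and those of Gm45205 cannot be told apart.

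Of the sensors, Nlrp3 encodes the sensor of cell disturbance that needs priming, and its level followed TNF. Without cytokine Nlrp3 had 1, 1, 0 and 2 counts in si-control and 0, 2, 8 and 7 in si-dnmt cells. With TNF it had 57, 50, 50 and 49 counts against 101, 91, 157 and 119, and with TNF + IFN 39, 24, 37 and 39 against 80, 96, 145 and 179. With IFN alone it had 0, 3, 1 and 3 counts against 8, 12, 11 and 10. The siRNA groups did not overlap in the 3 cytokine states, si-dnmt being higher. Over summed counts, the ratio of TNF to no cytokine in si-control cells was 49.2 (counting interval 18.9 to 182) and of TNF + IFN 39.4 (15.1 to 147). TNF raised Nlrp3 in si-control (adjusted p = 6.99e-09) and by 5.07 ± 0.43 in si-dnmt cells (adjusted p = 7.32e-10), as did TNF + IFN (adjusted p = 6.51e-09, and 5.40 ± 0.43 with adjusted p = 2.89e-11). IFN alone gave 1.39 ± 0.49 in si-dnmt cells (adjusted p = 0.0696). This value was called with the replicate block (1.39, adjusted p = 0.0303), by DESeq2 (1.37, adjusted p = 0.0403), in replicates 1 and 2 alone (3.28, adjusted p = 0.0047) and without si-dnmt replicate 3 (1.81, adjusted p = 0.0386). Between siRNAs the fitted difference was 2.41-fold with TNF and 3.74-fold with TNF + IFN, and the ratio of summed counts with IFN was 4.41 (counting interval 1.96 to 11.6). Response differences between siRNAs for Nlrp3 ran from −0.38 to 0.46, with SEs of 0.87 to 1.05.

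Aim2, the sensor of cytosolic double-stranded DNA, was higher in si-dnmt cells in every state and was the one gene lowered by cytokine. Without cytokine it was at 8.53, 9.43, 8.74 and 9.28 CPM with si-control and at 15.6, 15.5, 15.9 and 14.5 CPM in si-dnmt cells. With TNF + IFN it was at 7.11, 6.24, 7.57 and 6.93 CPM against 12.9, 12.6, 10.9 and 12.7 CPM. No si-control library reached the lowest si-dnmt library of its cytokine state, and the fitted difference was 1.71-, 1.73-, 1.51- and 1.77-fold without cytokine and with TNF, IFN and TNF + IFN. IFN lowered Aim2 in si-dnmt cells by 0.39 ± 0.10 on the log2 scale (adjusted p = 0.0107), and the value in si-control cells was −0.21 ± 0.10 (adjusted p = 0.201). With TNF + IFN it fell by 0.37 ± 0.11 in si-control (adjusted p = 0.00497) and by 0.32 ± 0.10 in si-dnmt cells (adjusted p = 0.0128). The last call was lost without si-dnmt + TNF + IFN replicate 3 (−0.27, adjusted p = 0.0543), and all 3 falls were lost when no filter on low counts was applied (adjusted p = 0.0957, 0.0583 and 0.0768). TNF gave −0.01 ± 0.10 and 0.01 ± 0.10.

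Of the caspase-1 substrates, Il18 encodes a cytokine that induces IFNγ in T and NK cells, and it rose with each cytokine. In si-control cells it had 0, 1, 5 and 5 counts without cytokine, 6, 7, 24 and 24 with TNF, 31, 35, 37 and 37 with IFN and 108, 123, 103 and 88 with TNF + IFN. In si-dnmt cells the counts were 8, 6, 4 and 13, then 30, 38, 33 and 27, then 36, 45, 45 and 78, then 116, 120, 100 and 143. In CPM the 4 cytokine states did not overlap within a siRNA, although some were close, as 0.224 CPM at most without cytokine and 0.258 CPM at least with TNF in si-control cells, or 1.78 CPM at most with TNF and 1.89 CPM at least with IFN in si-dnmt cells. In si-control cells Il18 rose by 2.36 ± 0.49 with TNF (adjusted p = 0.000401), by 3.83 ± 0.46 with IFN (adjusted p = 1.8e-07) and by 5.40 ± 0.44 with TNF + IFN (adjusted p = 3.67e-11). In si-dnmt cells it rose by 2.32 ± 0.39 (adjusted p = 6.55e-05), by 2.76 ± 0.38 (adjusted p = 4.35e-06) and 4.48 ± 0.39 (adjusted p = 1.51e-10). The fitted siRNA difference was 2.28-fold without cytokine, 2.21-fold with TNF, 1.09-fold with IFN and 1.20-fold with TNF + IFN. Without cytokine, replicates 1 and 2 alone differed by 3.33 on the log2 scale, from 0 and 1 counts against 8 and 6, and replicates 3 and 4 by 0.39. The excess with TNF lay mostly in replicates 1 and 2, where si-control libraries held 6 and 7 counts against 30 and 38, and replicates 3 and 4 differed by 0.44 on the log2 scale. The response to IFN was smaller in si-dnmt cells by 1.07 ± 0.64 and that to TNF + IFN by 0.92 ± 0.63, neither of which was called (adjusted p = 1 and 0.728).

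Il1b, the gene of IL-1β, had 1 count in all 32 libraries together, in si-control + TNF replicate 4. A floor of 3 counts corresponds to 0.0865 to 0.185 CPM in these libraries, so no fold is given, and no cytokine state brought Il1b above detection with either siRNA. These limits cover counting error only.

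Other genes of the pathway were counted from a list of 43, of which 38 were in the table and 23 were tested. In si-control cells 6 rose and 4 fell with TNF, beside 16.1% and 14.6% of all genes, 6 rose and 1 fell with IFN (8.52% and 5.87%), and 11 rose and 4 fell with TNF + IFN (23.5% and 21.6%). In si-dnmt cells 5 rose and 1 fell with TNF (11.5% and 9.53%), 5 rose and 0 fell with IFN (6.67% and 2.32%), and 9 rose and 1 fell with TNF + IFN (21.3% and 18.8%). With the replicate block the totals called were 12 for IFN in si-control cells and 12, 8 and 17 for TNF, IFN and TNF + IFN in si-dnmt cells. Median log2 fold changes over the 23 genes were 0.55 and 0.49 with TNF + IFN in si-control and si-dnmt cells.

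Of the genes with the largest called changes, Il18bp, the secreted inhibitor of IL-18, rose with IFN by 4.14 ± 0.39 in si-control cells (adjusted p = 5.14e-09) and by 3.16 ± 0.37 in si-dnmt cells (adjusted p = 3.1e-07). With TNF + IFN its mean level was 90.7 ± 28.6 CPM with si-control and 148 ± 37.7 CPM in si-dnmt cells (SD, n = 4). Nlrp1a, a sensor of the NLRP1 family, rose with TNF + IFN by 3.03 ± 0.49 (adjusted p = 7.58e-06) and 2.12 ± 0.44 (adjusted p = 0.000231). Naip6, of the family that senses bacterial flagellin and secretion proteins, rose with TNF + IFN by 1.64 ± 0.30 in si-dnmt cells (adjusted p = 5.86e-05) and with IFN by 1.59 ± 0.37 in si-control cells (adjusted p = 0.00264). Il1a, the gene of IL-1α, rose with TNF by 2.66 ± 0.64 in si-control cells (adjusted p = 0.00166), from 11 to 76 summed counts. Ninj1, which ruptures the membrane late in lytic death, rose by 1.74 ± 0.21 with TNF + IFN in si-dnmt cells (adjusted p = 9.24e-08) and showed a called TNF by IFN interaction in si-control cells (1.36 ± 0.29, adjusted p = 0.0106). Its level there was 45.0 CPM with TNF, 70.2 CPM with IFN and 169 CPM with TNF + IFN.

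Between siRNAs, 6 of these 23 genes were called higher and 2 lower in si-dnmt cells without cytokine, beside 9.55% and 8.82% of all genes, 6 and 1 with TNF (10.3% and 9.56%), 4 and 1 with IFN (10.8% and 9.55%), and 5 and 1 with TNF + IFN (8.91% and 8.65%). Naip5, Naip6 and Casp8 were among those called higher in all 4 states and Brcc3, a deubiquitinase of NLRP3, lower in all 4. Near-identical Naip copies may share reads, so their values are uncertain. With the replicate block the totals were 12, 10 and 10 with TNF, IFN and TNF + IFN. No gene of the list was called for a difference of any cytokine response between siRNAs, where 1, 3 and 2 had an unadjusted p under 0.05 for TNF, IFN and TNF + IFN. DESeq2 called 0, 1 and 1, and the replicate block called 1, 1 and 4.

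Over the 8 group means of log2 CPM, the genes most like Casp1 were Mfsd10, Rrp36, Asb8, Flad1 and Plagl2 (Pearson r 0.992 to 0.984) and those most like P2rx7 were Ticam1, Fbxw7, Ankrd27, Map2k4 and Ap1m1 (r 0.997 to 0.993). Among the pathway genes themselves, Casp4 and Gsdmd had r = 0.952 and Gsdmd and Il18 r = 0.959, whereas Casp1 and Casp12 had r = 0.176 and P2rx7 and Gsdmd 0.00373. The 8 points share libraries and 2 factors, and these values describe likeness of pattern only.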

How the data were processed

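The authors deposited raw counts per gene for each of the 32 libraries, made with featureCounts after trimming with cutadapt 4.9 and quality control with FastQC 0.12.1 and MultiQC 1.27.1 per the submitters' processing notes, which also name DESeq2. The aligner, genome build, annotation and strand setting were not given in the sources used. A merged table held the same counts. The genes and lists were chosen with earlier results of these data known. Counts of 54532 gene IDs (54495 in GENCODE M21, used for exon length) were filtered with filterByExpr (minimum count 10), leaving 15254 genes, scaled by TMM (factors 0.880 to 1.09) and fitted with edgeR 4.0.16 (R 4.3.3, limma 3.58.1) as 8 group means in 1 quasi-likelihood fit. Tests were two-sided, with Benjamini-Hochberg adjustment over all genes, called under 0.05, for 15 contrasts; errors of log2 fold changes are SEs, and intervals are 95%. CPM were computed from library totals multiplied by the TMM factors. The scripts were tested on simulated data.

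From the other pathway genes, those named were the called genes with the 3 largest absolute log2 changes in contrasts not used to choose the genes, and for Casp1 and P2rx7 the 5 genes with the highest correlation; the genes singled out between siRNAs were named after their values were seen. The result of 1 other pathway gene is not reported here. Same-numbered replicates deviated together (the lowest same-number correlation in each pair of groups was 0.297 to 0.502). Of the 32 libraries, 24 matched their own replicate number best. The replicate numbers were therefore taken as a pairing, and a replicate block was fitted beside the unpaired fit. The p-values of the unpaired fit leave the pairing out. No pair of replicates agreed within sampling noise (chi-square per gene 3.35 to 94.5). In every group replicates 1 and 2, and replicates 3 and 4, were closer to each other than across these sets. In si-dnmt cells without cytokine the values were 7.11 and 11.2 within the sets and 65.7 to 80.9 across them. The unpaired fit does not model these sets. Alternatives were DESeq2 1.42.0, RLE factors, library totals, no filter, a minimum count of 30, the libraries of the contrast alone, replicate pairs and leaving out each library. Whether replicates came from separate cultures on separate days is not stated, so p-values measure the spread between these samples. Promoter windows came from RefSeq GRCm38.p6.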

Additional observations from a re-analysis of the deposited data

Results flagged for a closer look

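In si-dnmt cells with TNF + IFN, 3 values lay far from the other 3 of their group by Dixon's criterion: Casp1 in replicate 1 at 14.0 CPM against 11.7 to 11.9 CPM, Aim2 in replicate 3 at 10.9 CPM against 12.6 to 12.9 CPM, and Il18 in replicate 3 at 5.78 CPM against 7.06 to 7.19 CPM. Chance flags about 1 in 20 groups, and 72 were examined.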

How the results depend on the processing

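The 58 called values of the 9 genes gave 984 values under the alternatives. Of these, 939 kept direction and call, 45 kept direction and lost the call, and 0 changed direction. Without the leave-one-out fits the numbers were 520, 499 and 21. The totals include the calls between siRNAs, on the contrast used for the selection. Stability there follows in part from the choice of genes, and nothing is read from it. Calls lost outside the leave-one-out fits and not given above were Casp12 between siRNAs with IFN and TNF + IFN (no filter), Il18 between siRNAs with TNF and after TNF in si-control cells (libraries of the contrast alone), Pycard after TNF + IFN in si-control cells (RLE factors, library totals, no filter, libraries of the contrast alone and replicates 1 and 2 alone), Casp1 after TNF in si-control cells (no filter and libraries of the contrast alone), Casp1 after IFN in si-control cells (replicates 3 and 4 alone) and Aim2 in single replicate pairs. With the replicate block the number of the 9 genes called rose from 0 to 1 for the difference of the TNF + IFN response (Casp4) and to 1 for the TNF by IFN interaction in si-dnmt cells (Casp1); it changed no other call than those given beside the results and, between siRNAs, Casp12 without cytokine, Casp4 with TNF and IFN and Pycard with TNF + IFN, which it added. Replicates 1 and 2 alone called 1 gene for the difference of the TNF response, 2 for that of TNF + IFN, 1 for the interaction in si-control and 2 in si-dnmt cells, and replicates 3 and 4 alone called 1 for the difference of the TNF + IFN response. Leaving out 1 library gave 7 to 8 genes called after TNF + IFN with either siRNA, 5 to 6 after TNF in si-control cells, 5 in si-dnmt cells, 5 after IFN in si-control and 6 to 7 in si-dnmt cells, and 0 for every response difference and interaction. Of the 23 other pathway genes, replicates 1 and 2 alone called 12, 11 and 12 between siRNAs with TNF, IFN and TNF + IFN (7, 5 and 6 in the fit over all libraries), 15 after IFN in si-control cells (7) and 13, 8 and 16 after TNF, IFN and TNF + IFN in si-dnmt cells (6, 5 and 10), and replicates 3 and 4 alone called 14, 13, 12 and 12 between siRNAs without cytokine and with TNF, IFN and TNF + IFN (8, 7, 5 and 6) and 12 and 17 after IFN and TNF + IFN in si-dnmt cells (5 and 10). For their response differences and interactions, 0 to 2 in the fit over all libraries, every alternative gave 0 to 7. Counts under 10 limit Casp1, P2rx7, Pycard, Nlrp3 and Il18 in si-control cells. In si-dnmt cells without cytokine, the baseline of the responses there, most counts of Pycard, Nlrp3 and Il18 were also under 10. The causes of these changes were not tested.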
